A study of Mus musculus with 6 samples.

Results

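Insulin-like growth factors (IGFs) are small secreted proteins that drive growth and survival by binding the receptor tyrosine kinase encoded by Igf1r. A family of secreted IGF binding proteins holds the ligands in the extracellular space, and can withhold them from the receptor or deliver them to it. In the limb bud the ectoderm forms the apical ridge, a strip of cells that signals to the mesenchyme beneath, and transcripts of Igfbp2 and Igfbp5 are known from limb ectoderm. The genes described here are 10 rows of a table of 49452 genes, chosen by symbol alone: the ligands Igf1 and Igf2, the receptor Igf1r, and the binding proteins Igfbp1 to Igfbp7.

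RNA was measured in forelimb bud ectoderm of mouse embryos at E10.5, in 3 wild-type embryos and 3 embryos null for Sp8, which encodes a DNA-binding protein of the Sp family made in limb ectoderm. The wild-type embryos came from matings of C57BL/6 mice. The Sp8 null embryos came from matings of mice heterozygous for an allele named Sp8-Cre-ERT2, so that they lacked Sp8 and also carried Cre-ERT2. The effects of each cannot be told apart in this design. Matings, and so litters, also differed between the genotypes, and their effects cannot be told apart from that of genotype. Each library held the ectoderm of both forelimbs of a single embryo, freed with trypsin and forceps, and all embryos are labelled with the C57BL6J background. The comparison asks how IGF family transcripts differ in limb ectoderm without Sp8.

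Sp8 itself was listed at 0.7661, 0.4598 and 1.135 FPKM in Sp8 null embryos 1, 2 and 3 and at 8.345, 10.97 and 13.47 FPKM in wild-type embryos 1, 2 and 3, so each library followed its label. FPKM counts sequenced fragments after scaling for transcript length and for the mapped fragments of the library. Depth is known only in relative terms, from 0.843 to 1.03 of that of wild-type embryo 1, and no counting interval can be given. All 12 ectoderm markers passed the filter, which asked for 1 FPKM or more in at least 3 libraries, and their summed level was 519 to 628 FPKM in Sp8 null and 604 to 646 FPKM in wild type. Among them Epcam fell and Tfap2a rose. Across the 12133 tested genes 829 were called, that is 6.83%, at a Benjamini-Hochberg adjusted p under 0.05 in limma. Of these 204 were higher in Sp8 null (1.68% of tested genes) and 625 lower (5.15%). Other scalings gave 322 higher and 544 lower (median of ratios) or 363 higher and 507 lower (upper quartile).

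The IGF ligand RNA of this ectoderm was almost wholly Igf2, and its binding protein RNA was mostly Igfbp5. In Sp8 null ectoderm Igfbp5 and Igfbp3 fell to 0.613 and 0.484 of their wild-type means and Igfbp4 rose to 1.32 of its wild-type mean. Igf2, Igf1r and Igfbp2 did not pass the test. Igf1, Igfbp1, Igfbp6 and Igfbp7 were below the filter. Thus 6 of the 10 genes were tested, each of them at 1 FPKM or more in all 6 libraries, and 3 were called, 2 lower and 1 higher, beside the 6.83% of all tested genes given above. The median log2 fold change of the 6 was -0.21, and that of all tested genes was -0.06.

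**Figure D1:**
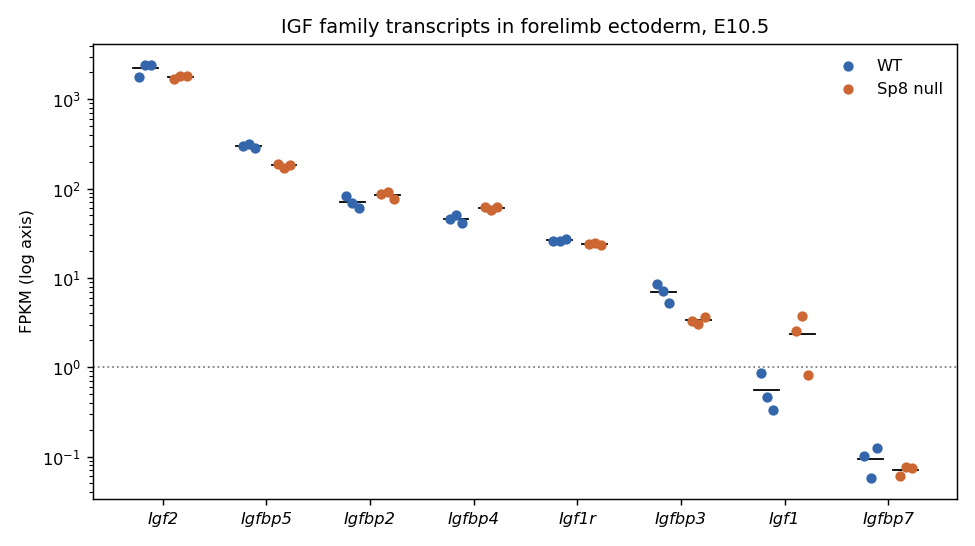
FPKM (log axis) of 8 IGF family genes, with each point 1 library, black lines at group means and a dotted line at 1 FPKM; Igfbp1 and Igfbp6, listed at 0 in most or all libraries, are not drawn. Igfbp5 and Igfbp3 sit lower and Igfbp4 sits higher in every Sp8 null library than in any wild-type library, while the points of Igf2, Igfbp2 and Igf1 overlap between groups.

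The order of levels was the same in both genotypes. Because FPKM takes length into account, levels can be set side by side between genes. In wild type the means ran from Igf2 (2212 FPKM) through Igfbp5 (297.9), Igfbp2 (70.53), Igfbp4 (45.88), Igf1r (26.26), Igfbp3 (6.925) and Igf1 (0.55) to Igfbp7 (0.0941). No neighbours in that order overlapped between their wild-type libraries. In Sp8 null the ranges of Igfbp3 and Igf1 did overlap, since Igf1 in Sp8 null embryo 2 was above Igfbp3 there.

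Igfbp5 encodes a binding protein that also attaches to extracellular matrix. It is on the minus strand of chromosome 1 (72857932 to 72874884, GRCm38), 5457 bases from the end of Igfbp2, which faces it on the plus strand. Its level was 297.5, 312.3 and 283.9 FPKM in wild-type embryos 1, 2 and 3 and 190.2, 171.8 and 186.0 FPKM in Sp8 null embryos 1, 2 and 3. The lowest wild-type library was thus far above the highest Sp8 null library, and the spread within each genotype was small (SD 14.2 and 9.68 FPKM, n = 3 each). The log2 fold change was -0.70 (SE 0.07; limma, adjusted p = 0.0017). Igfbp5 kept its call in all 17 alternatives tried. In the authors' deposited table, where a minus sign marks a lower level in Sp8 null, Igfbp5 had a fold change of -1.58.

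Igfbp3 encodes the main IGF carrier of adult blood. It lies on the minus strand of chromosome 11 (7206086 to 7213923), 3539 bases from Igfbp1. Its level was 8.455, 7.081 and 5.239 FPKM in wild-type embryos 1, 2 and 3 and 3.288, 3.068 and 3.691 FPKM in Sp8 null embryos 1, 2 and 3. The groups did not overlap, and the spread was wider in wild type (SD 1.61 FPKM) than in Sp8 null (SD 0.316 FPKM). The log2 fold change was -0.85 (SE 0.16; limma, adjusted p = 0.0217). The call was lost without Sp8 null embryo 1 (limma adjusted p = 0.0721), Sp8 null embryo 2 (0.0716), wild-type embryo 1 (0.0517) or wild-type embryo 2 (0.0904), with the log2 fold change between -0.84 and -0.71. Igfbp3 stood at -1.91 in the fold column of the authors' deposited table.

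Igfbp4 encodes a binding protein known mostly as an inhibitor of IGF action, which is released from its ligand by the protease encoded by Pappa. It is on the plus strand of chromosome 11 (99041244 to 99054392). Its level was 46.13, 50.0 and 41.53 FPKM in wild-type embryos 1, 2 and 3, against 61.78, 57.34 and 62.54 FPKM in Sp8 null embryos 1, 2 and 3. All Sp8 null libraries were above all wild-type libraries. The log2 fold change was 0.40 (SE 0.08; limma, adjusted p = 0.0359). Leaving out any 1 of the 6 libraries ended this call (limma adjusted p from 0.0542 to 0.102), with the estimate between 0.33 and 0.46. The fold change of Igfbp4 in the authors' deposited table was 1.31.

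Promoter sequence is shown for these 3 genes and for Igfbp2, the neighbour of Igfbp5, because Sp factors are zinc finger proteins that bind GC-rich boxes. The sequences are those of RefSeq on GRCm38.p6, 5′ to 3′ on the strand of the gene, and run from 250 bases before the start to the last base before any annotated exon. Capitals mark matches on either strand to any of 4 motifs. The GC box was searched as GGGCGG. The box known by the letters of its core, or CACC box, was searched as GGGTGG. The TATA box was searched as TATAAA. The core site of homeodomain proteins was searched as TAATTA. Igfbp2 has a further start in RefSeq, and the window of its first start is given.
Igfbp5, chr1:72874885-72875115, minus strand: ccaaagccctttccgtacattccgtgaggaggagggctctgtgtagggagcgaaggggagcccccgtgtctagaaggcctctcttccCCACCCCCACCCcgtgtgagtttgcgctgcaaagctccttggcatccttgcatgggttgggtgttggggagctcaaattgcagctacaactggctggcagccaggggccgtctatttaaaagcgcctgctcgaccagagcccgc
Igfbp3, chr11:7213924-7214173, minus strand: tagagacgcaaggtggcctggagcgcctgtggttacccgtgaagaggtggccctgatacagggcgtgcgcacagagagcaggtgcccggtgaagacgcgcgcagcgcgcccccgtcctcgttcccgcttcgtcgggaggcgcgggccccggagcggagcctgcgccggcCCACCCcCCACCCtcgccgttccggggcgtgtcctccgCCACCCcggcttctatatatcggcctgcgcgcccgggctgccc
Igfbp4, chr11:99040994-99041243, plus strand: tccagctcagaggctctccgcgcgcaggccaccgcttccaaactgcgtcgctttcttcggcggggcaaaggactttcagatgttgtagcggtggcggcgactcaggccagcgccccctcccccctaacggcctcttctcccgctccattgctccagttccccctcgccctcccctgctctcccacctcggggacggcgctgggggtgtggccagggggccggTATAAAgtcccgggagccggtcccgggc
Igfbp2, chr1:72824230-72824479, plus strand: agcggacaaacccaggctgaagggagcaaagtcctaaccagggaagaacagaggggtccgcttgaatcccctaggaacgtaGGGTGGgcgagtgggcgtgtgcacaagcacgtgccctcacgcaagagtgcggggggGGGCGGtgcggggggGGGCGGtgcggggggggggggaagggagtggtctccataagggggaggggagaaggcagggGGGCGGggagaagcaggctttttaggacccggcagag

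The lower genes held CACC boxes and no GC box in these windows: 2 in Igfbp5, adjoining each other, and 3 in Igfbp3. Igfbp4 held neither and had 1 TATA box 5′ of its start. The printed Igfbp2 window held 3 GC boxes and 1 CACC box. The TAATTA core was in none of the 4 printed windows. CACC boxes without a GC box were not confined to the lower genes. Windows of the further Igfbp2 start (2), the first Igf2 start (1), Igfbp1 (1) and Igfbp6 (2) had them too. Those of Igf1, Igf1r, Igfbp7 and the later Igf2 starts did not have this pattern. Among 32851 promoter windows of 250 bases in the same RefSeq table, 32.7% held a GC box, 28.1% a CACC box, 12.4% a TATA box and 4.84% the TAATTA core. These letters are common, and a match is a description of the sequence only.

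Igfbp2 encodes a binding protein abundant in embryonic epithelia. It was at 82.24, 68.79 and 60.57 FPKM in wild-type embryos 1, 2 and 3 and at 87.83, 91.88 and 76.41 FPKM in Sp8 null embryos 1, 2 and 3. Wild-type embryo 1 was above Sp8 null embryo 3, so the groups overlapped. Its estimate on the log2 scale was 0.28 (95% interval -0.01 to 0.56; limma, adjusted p = 0.216). The authors' deposited table listed Igfbp2 at a fold change of 1.23 and a p-value of 0.000589.

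The remaining binding proteins were nearly silent. Igfbp1 was listed at 0 in every library, and Igfbp6 in every library but Sp8 null embryo 3 (0.07537 FPKM). For Igfbp6 the authors' deposited group means were 1.07 in wild type and 0.93 in Sp8 null, so a listed 0 FPKM need not mean no signal. Igfbp7, whose product binds IGFs weakly, lay between 0.05713 and 0.1232 FPKM over the 6 libraries and overlapped between groups. Its mean was 0.0941 FPKM in wild type and 0.0704 FPKM in Sp8 null. Its deposited group means ran the other way, at 4.31 in wild type and 8.25 in Sp8 null, with a p-value of 0.254 in the authors' deposited table. Igfbp7 shares 85 exonic bases with Polr2b on the other strand, and no use of strand in counting is given in the sources used here. The endothelial markers, read here because Igfbp3 and Igfbp7 are also made by vessels, were low: 1 of 11, Egfl7, passed the filter. Tie1, Cldn5 and Emcn were listed at 0 in 5 of 6 libraries and Cdh5 in all 3 wild-type libraries. Cdh5 was at 0.02416 to 0.3588 FPKM in Sp8 null. Pecam1 was at 0.154 to 0.3583 FPKM in Sp8 null and 0.04663 to 0.1231 FPKM in wild type. Cdh5 and Pecam1 were thus higher in Sp8 null without overlap, and the other endothelial markers overlapped between groups. The summed endothelial level was 2.64 to 4.62 FPKM in Sp8 null and 2.26 to 3.19 FPKM in wild type.

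The changes shifted the make-up of binding protein RNA. Summed over Igfbp1 to Igfbp7 it was 391.3 to 438.2 FPKM in wild type and 324.1 to 343.2 FPKM in Sp8 null. The share of Igfbp5 was 68.5%, 71.3% and 72.5% in wild-type embryos 1, 2 and 3, and 55.4%, 53.0% and 56.6% in Sp8 null embryos 1, 2 and 3. The share of Igfbp4 was 10.9% ± 0.462 in wild type and 18.2% ± 0.681 in Sp8 null (SD, n = 3). That of Igfbp2 was 16.7% ± 1.91 and 25.7% ± 2.55 (SD, n = 3). Igfbp2 itself did not pass the test, and its share also depends on the sum, which was lower in Sp8 null. The shares were not tested. Igfbp3 held at most 1.95% in any library.

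**Figure D2:**
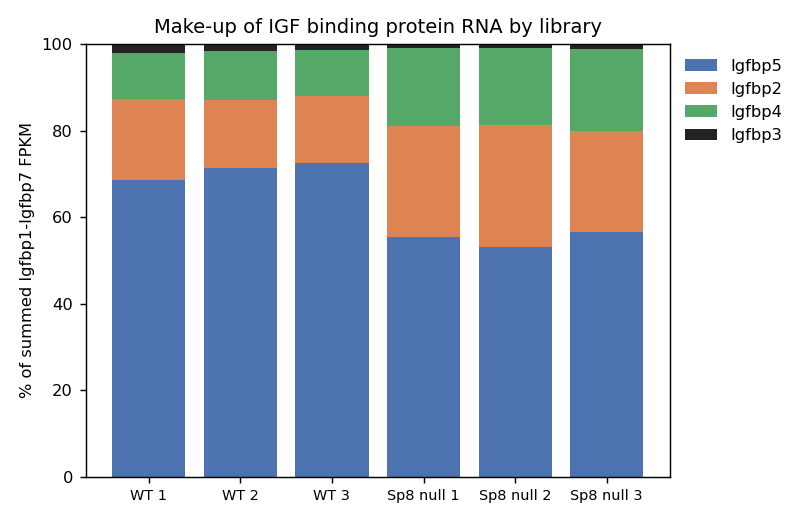
Share of each gene in the summed FPKM of Igfbp1 to Igfbp7 (y axis, percent) in each of the 6 libraries; Igfbp1, Igfbp6 and Igfbp7 are too low to be seen. The Igfbp5 part is 68.5% or more in each wild-type library and 56.6% or less in each Sp8 null library.

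A ratio of genes within a library does not depend on scaling between libraries. The FPKM of Igfbp5 divided by that of Igfbp4 was 6.45, 6.25 and 6.84 in wild-type embryos 1, 2 and 3 and 3.08, 3.0 and 2.97 in Sp8 null embryos 1, 2 and 3. The same ratio to Igfbp2, the genomic neighbour of Igfbp5, was 3.62 to 4.69 in wild type and 1.87 to 2.43 in Sp8 null. Neither ratio overlapped between genotypes. Igfbp5 divided by Igfbp3 did overlap, at 35.2 to 54.2 in wild type and 50.4 to 57.8 in Sp8 null. So did Igfbp2 divided by Igfbp4, at 1.38 to 1.78 in wild type and 1.22 to 1.6 in Sp8 null. None of these ratios was tested. The summed ligand FPKM divided by summed binding protein FPKM was 5.28 ± 1.07 in wild type and 5.4 ± 0.41 in Sp8 null (SD, n = 3), and the groups overlapped.

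Among the ligands, Igf2 is the main IGF of the embryo and is imprinted, with expression from the paternal copy. It lies on the minus strand of chromosome 7 (142650766 to 142666816). It was listed at 1779, 2442 and 2416 FPKM in wild-type embryos 1, 2 and 3 and at 1688, 1838 and 1838 FPKM in Sp8 null embryos 1, 2 and 3. Wild-type embryos 2 and 3 were above all Sp8 null libraries, and wild-type embryo 1 lay among them. For Igf2 the log2 fold change was -0.29 (95% interval -0.60 to 0.02; limma, adjusted p = 0.229). Without wild-type embryo 1 it was -0.44 (limma adjusted p = 0.0516), the largest in size of all alternatives tried. With any other library left out it lay between -0.31 and -0.21 (limma adjusted p from 0.283 to 0.519). Under median-of-ratios and upper-quartile scaling it was -0.22 and -0.20 (limma adjusted p = 0.402 and 0.435). Igf2 had a fold change of -1.18 and a p-value of 0.0178 in the authors' deposited table. Markers of red blood cells, of which 5 of 6 passed the filter and 0 were called, summed to 421.7 FPKM in wild-type embryo 1 and to 11.62 to 161.5 FPKM in the other libraries, and their part in the Igf2 values was not tested. The exons of Igf2 share 98 bases with Igf2os on the other strand, which was at 3.475 to 4.742 FPKM. In GENCODE M21 they also share 3596 bases with Gm49394, a protein-coding gene on the same strand with no values here, so how reads were split between these genes is uncertain. Whatever the genotype, Igf2 made up 99.8% or more of summed ligand FPKM in every library.

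Igf1, the ligand made by limb mesenchyme, was low and uneven. It was at 0.8545, 0.4656 and 0.3301 FPKM in wild-type embryos 1, 2 and 3 and at 2.56, 3.697 and 0.8263 FPKM in Sp8 null embryos 1, 2 and 3. Sp8 null embryos 1 and 2 stood above the other libraries, and Sp8 null embryo 3 lay just below the highest wild-type library. With no filter on low values the log2 fold change of Igf1 was 1.03 (SE 0.37; limma, unadjusted p = 0.0336, adjusted p = 0.291). The authors' deposited table gave Igf1 group means of 69.78 in wild type and 185.47 in Sp8 null, a ratio of 2.66, beside a listed fold change of 1.18 and a p-value of 0.201. How the listed fold was computed is not given in the sources used here.

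Markers of limb mesenchyme also varied between libraries. Of 13, 8 passed the filter and none was called. Their summed level was 65.49, 30.41 and 43.16 FPKM in wild-type embryos 1, 2 and 3 and 35.55, 133.5 and 32.26 FPKM in Sp8 null embryos 1, 2 and 3. Sp8 null embryo 2 was highest for both Igf1 and these markers. No mesenchymal marker was at 0 in any library. Twist2 was higher and Pdgfra and Shh lower in all Sp8 null libraries than in any wild-type library. The macrophage markers, of which 0 of 9 passed the filter, summed to 1.62 to 3.19 FPKM in Sp8 null and 0.296 to 1.01 FPKM in wild type. The muscle precursor markers, of which 0 of 3 passed, summed to at most 0.697 FPKM in any library. The part of such cells in the Igf1 values was not tested.

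**Figure D3:**
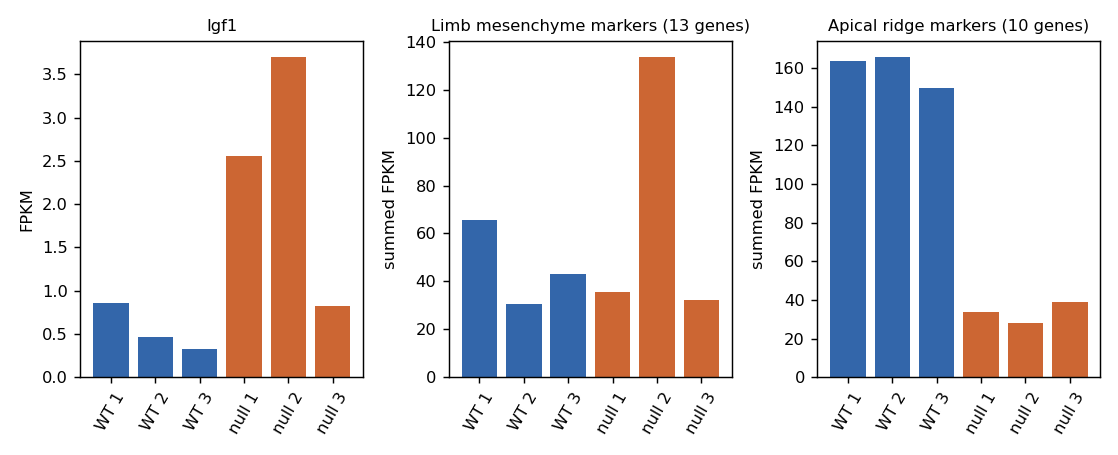
Igf1 (left), summed limb mesenchyme markers (middle) and summed apical ridge markers (right), each in FPKM with 1 bar per library, wild type in blue and Sp8 null in orange. Igf1 is highest in Sp8 null embryos 1 and 2, the mesenchyme sum in Sp8 null embryo 2 alone, and the ridge sum in the 3 wild-type embryos.

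The apical ridge markers moved with Igfbp5 and Igfbp3. Of 10, 9 passed the filter and 8 were called, all lower in Sp8 null, the exception being Bmp2. Their summed level was 149.7 to 165.6 FPKM in wild type and 28.22 to 38.93 FPKM in Sp8 null. In bulk ectoderm, fewer ridge cells and less RNA per cell cannot be told apart, and the part of the ridge in the binding protein values was not tested. The log2 fold changes of the called ridge markers ran from -1.05 (Dlx5) to -4.38 (Fgf8). Those of Igfbp5 (-0.70) and Igfbp3 (-0.85) were smaller in size, though Igfbp3 was close to Dlx5 in FPKM terms. Mean FPKM in Sp8 null and wild type was 3.349 and 6.925 for Igfbp3 and 8.2 and 17.7 for Dlx5.

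The receptor Igf1r, on the plus strand of chromosome 7 (67952827 to 68233668), varied little within each genotype. It was at 26.16, 25.63 and 26.98 FPKM in wild-type embryos 1, 2 and 3 and at 23.82, 24.32 and 23.61 FPKM in Sp8 null embryos 1, 2 and 3. The groups did not overlap. This was so for 29.8% of all tested genes (21.1% lower and 8.63% higher in Sp8 null) and for 4 of the 6 tested IGF genes (3 lower and 1 higher). Its log2 fold change was -0.13 (95% interval -0.28 to 0.02; limma, adjusted p = 0.261), and it was -0.06 under median-of-ratios and -0.04 under upper-quartile scaling. The authors' deposited table gave -1.11 for Igf1r with a p-value of 0.0181. Igf2r, which takes up and clears IGF2, had a log2 fold change of -0.07 (limma adjusted p = 0.66), which turned to 0.02 under upper-quartile scaling. The insulin receptor gene Insr had one of 0.05 (limma adjusted p = 0.742). Insrr was listed at 0 in every library.

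A list of 41 other genes of the pathway was read, from the other receptors and the signalling chain to secreted regulators of the binding proteins and Igf2 RNA partners, and 32 passed the filter. Of these 0 were called higher and 5 lower (Irs1, Irs2, Pik3r1, Foxo1 and H19), beside 5.15% of all tested genes called lower. The median log2 fold change of the list was -0.06, as for all tested genes. By role, 2 of 7 tested adaptors, 1 of 15 genes of the PI3K-AKT-mTOR chain, 1 of 3 FoxO genes and 1 of 4 Igf2 RNA partners were called, and none of 2 receptors and 1 secreted regulator.

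Irs1 and Irs2 encode the docking proteins that the activated IGF and insulin receptors phosphorylate. Irs2 was at 10.69, 10.09 and 11.73 FPKM in wild-type embryos 1, 2 and 3 and at 7.386, 7.381 and 6.869 FPKM in Sp8 null embryos 1, 2 and 3, with a clear gap between groups. Its log2 fold change was -0.53 (SE 0.09; limma, adjusted p = 0.0139). Irs1 averaged 12.7 ± 0.908 FPKM in wild type and 9.01 ± 1.07 FPKM in Sp8 null (SD, n = 3). Its log2 fold change was -0.46 (SE 0.10; limma, adjusted p = 0.0437). The Irs1 call was lost without any 1 of the 6 libraries (limma adjusted p from 0.0688 to 0.131) and under both other scalings (0.061 and 0.0671). Irs1 also shares 2822 exonic bases with Gm9747 on the other strand, so its reads are uncertain.

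Pik3r1 encodes the main regulatory subunit of the PI3 kinase that binds IRS proteins. It was at 24.28, 23.16 and 21.54 FPKM in wild-type embryos 1, 2 and 3 and at 14.68, 10.23 and 12.28 FPKM in Sp8 null embryos 1, 2 and 3, again without overlap. The log2 fold change of Pik3r1 was -0.85 (SE 0.12; limma, adjusted p = 0.00922), close to that of Igfbp3. It held with each library left out in turn, and the limma adjusted p was 0.0516 with no filter on low values. The catalytic subunit Pik3ca (log2 fold change -0.08, limma adjusted p = 0.636), the kinases Akt1 and Akt2 (-0.16 and 0.01, adjusted p = 0.442 and 0.958) and Mtor (0.03, adjusted p = 0.882) did not pass the test.

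Foxo1 encodes a transcription factor that AKT keeps out of the nucleus. It was at 4.924, 5.58 and 5.412 FPKM in wild-type embryos 1, 2 and 3 and at 3.478, 3.058 and 3.91 FPKM in Sp8 null embryos 1, 2 and 3. The groups did not overlap, and the log2 fold change was -0.50 (SE 0.10; limma, adjusted p = 0.0358). Leaving out any 1 library other than Sp8 null embryo 3 ended the Foxo1 call (limma adjusted p from 0.0644 to 0.136). Its relatives Foxo3 and Foxo4 had log2 estimates of 0.06 and 0.14 and did not pass the test (limma, adjusted p = 0.687 for Foxo3 and 0.444 for Foxo4).

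H19 is a maternally expressed long noncoding RNA that neighbours Igf2 at a distance of 72622 bases and shares its enhancers. It was at 1373, 1419 and 1373 FPKM in wild-type embryos 1, 2 and 3 and at 1041, 1109 and 1023 FPKM in Sp8 null embryos 1, 2 and 3. The wild-type libraries were thus all above the Sp8 null libraries, with a log2 fold change of -0.39 (SE 0.07; limma, adjusted p = 0.0185). The H19 call was lost under upper-quartile scaling (limma adjusted p = 0.0526) and without Sp8 null embryo 1 (0.0685), Sp8 null embryo 3 (0.0536), wild-type embryo 1 (0.056) or wild-type embryo 2 (0.0931). The FPKM of Igf2 divided by that of H19 was 1.59 ± 0.255 in wild type and 1.69 ± 0.0945 in Sp8 null (SD, n = 3), with overlap. Igf2bp1, Igf2bp2 and Igf2bp3, which encode proteins that bind Igf2 RNA, were at 50.85 FPKM or more in every library and did not pass the test (log2 estimates of -0.15, -0.12 and -0.14; limma, adjusted p = 0.352, 0.31 and 0.393).

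**Figure D4:**
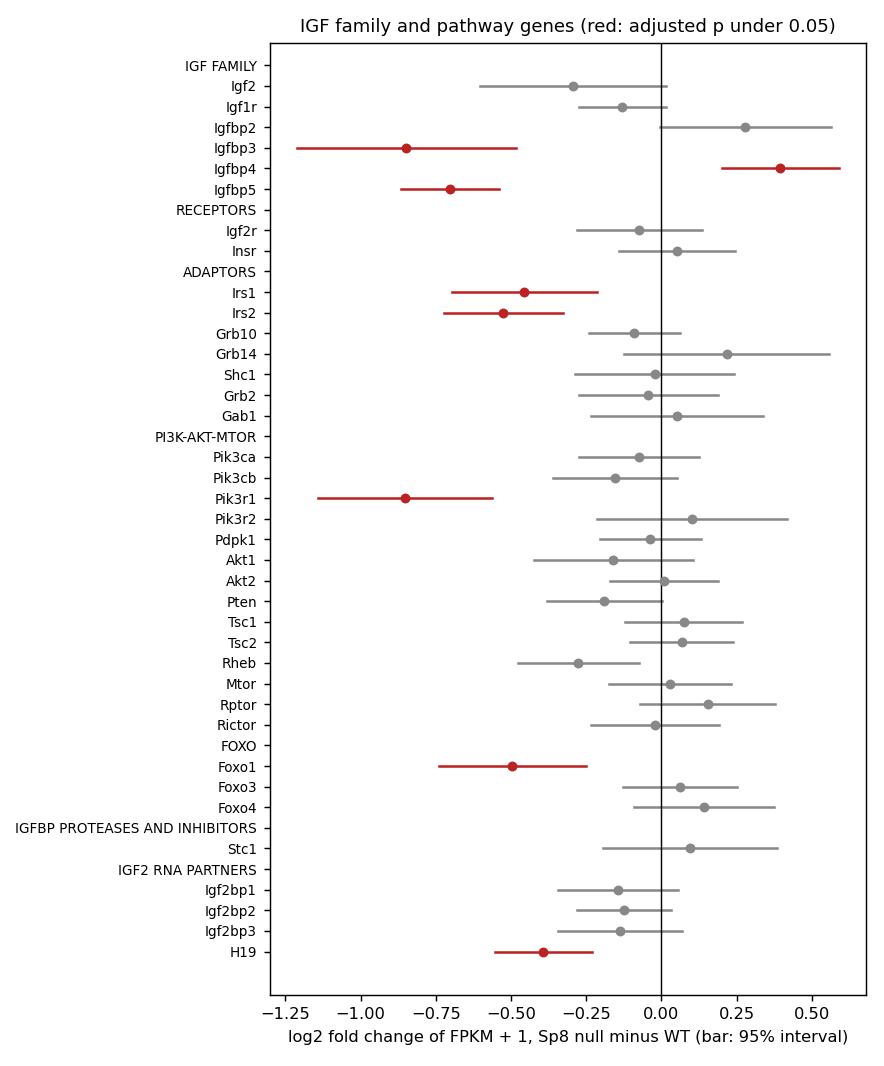
Log2 fold change of FPKM + 1, Sp8 null minus wild type (x axis), of the 6 tested IGF family genes and of the tested pathway genes, all but 1, grouped by role; bars are 95% intervals and red marks an adjusted p under 0.05. Of the 8 red genes Igfbp4 alone lies to the right of 0, at 0.40, and Pik3r1 (-0.85) and Igfbp3 (-0.85) lie farthest left.

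The proteases read here that can free IGFs from their binding proteins were those of Pappa, Pappa2 and Htra1. All were below the filter, and no other protease was read. Pappa, the protease of IGFBP4, was at 0.0435 to 0.1464 FPKM over the 6 libraries, and Pappa2 at 0.009732 to 0.3776 FPKM. Htra1, a secreted protease that cuts IGFBP5, reached 1 FPKM in 2 libraries. Stc1, which encodes an inhibitor of the Pappa protease, was the one tested gene of this role, with a log2 fold change of 0.09 (limma adjusted p = 0.688).

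For each called binding protein the genes of most similar profile were sought among the 7353 tested genes that averaged 5 FPKM or more. Likeness was the root mean square difference, over the 6 libraries, of log2(FPKM + 1) centred on the mean of each gene. Nearest to Igfbp5 were Slc25a13, a mitochondrial aspartate and glutamate carrier (0.04), Mesdc2, a chaperone of Wnt coreceptors (0.052), and Prdx4, a peroxidase of the endoplasmic reticulum (0.053). Nearest to Igfbp3 were P4ha1, a subunit of collagen prolyl hydroxylase (0.072), the mitochondrial import chaperone Timm10 (0.077) and Odc1, the first enzyme of polyamine synthesis (0.099). P4ha1 was at 21.01, 20.31 and 14.93 FPKM in wild-type embryos 1, 2 and 3, and shared with Igfbp3 its lowest wild-type value in embryo 3. Nearest to Igfbp4 were Tmem64 (0.044), Glce, which encodes an epimerase of heparan sulfate synthesis (0.048), and Tfdp2, a partner of E2F factors (0.058). Of these 9 genes Glce alone was not called (limma adjusted p = 0.0542). Because the genes were chosen for likeness to a called gene in the same libraries, their calls carry no further reading. These likenesses, over 6 libraries, are descriptions only.

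**Figure D5:**
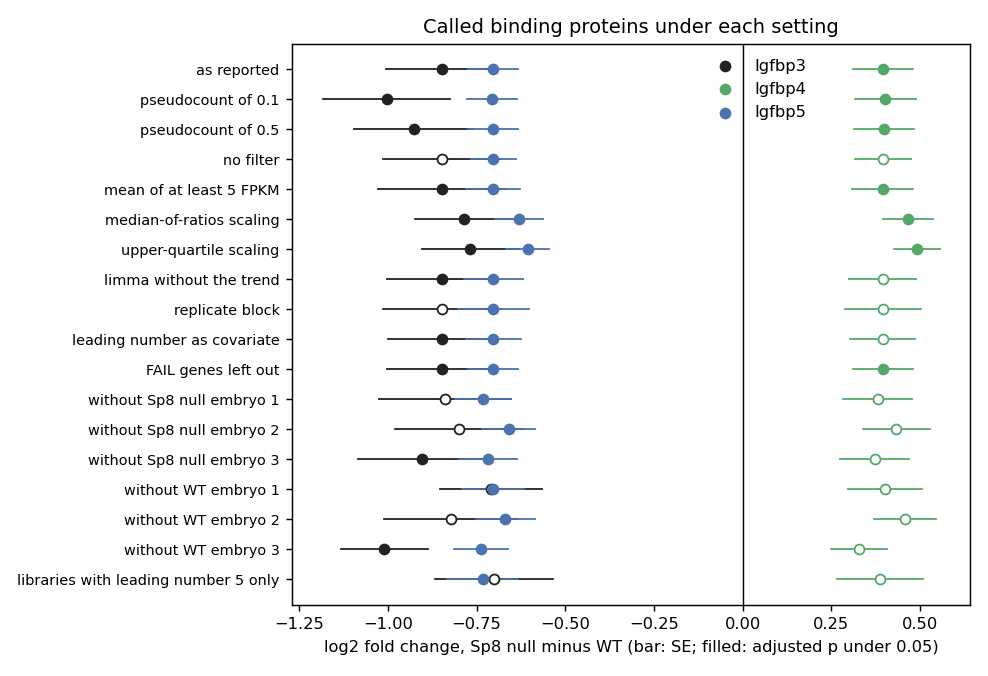
Log2 fold change of Igfbp3, Igfbp4 and Igfbp5 (x axis, Sp8 null minus wild type, bars SE) as reported and under 17 other settings (rows); filled points passed an adjusted p of 0.05. Igfbp5 is filled in every row, Igfbp3 in 10 of the 17 alternatives and Igfbp4 in 6, and no point crosses 0.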

How the data were processed

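One deposited table was used. The authors deposited FPKM per gene and library, with an estimate status, for Ensembl build 87 genes per the file headers. Per the submitters' processing notes, TopHat2, Cufflinks, DESeq2, SAMtools and FastQC and the GRCm38 build were used, with no roles given. The deposited means per group (a normalized signal), fold score and p-value are the authors', with the test and any adjustment not given in the sources used here. They are used only where named.

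Values were put on the log2 scale with a pseudocount of 1, and genes reaching 1 FPKM in 3 or more libraries were kept (12133 genes), with genotype as the one term in limma 3.58.1 (R 4.3.3, mean-variance trend, two-sided, Benjamini-Hochberg over all tested genes). This scale understates changes of low genes. The fit was tested on simulated data. Whole reads were not recovered, so no count test was run. Each library is a separate embryo.

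Missing symbols were filled from a table of gene names; coordinates are from GENCODE M21 (GRCm38). Promoter sequences for the IGF genes are from RefSeq (GRCm38.p6). The genes, lists and tests were chosen with earlier results of these data known. Named genes are all 10 members, Sp8, called pathway genes, the pathway gene of smallest p per role, and the 3 nearest profiles of each called member. For 1 pathway gene, counted in its list, values are not reported here. Pathway genes named without passing, and those below the filter, were chosen after their values were seen. Alternatives covered pseudocount, filter, scaling, trend, blocks, failed estimates and single libraries.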

Additional observations from a re-analysis of the deposited data

How the results depend on the processing

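The 6 tested members kept their direction in all 102 alternative estimates; 84 kept their side of the threshold and 18 lost it (7 of Igfbp3, 11 of Igfbp4). The cause was not tested. Members called were 3; the number was 1 with no filter (9 members tested, more genes to adjust over), with the replicate block and among the 4 libraries whose sample name starts with 5 (chosen after seeing the data, fewer samples), and 1 to 2 with 1 library left out. Igfbp5 was called in each of these. Pathway genes called were 5; the number was 2 with no filter (Igfbpl1 and Irs2), 3 under upper-quartile scaling, 3 with that leading number (4 or 5) as covariate, 1 with the replicate block (Pik3r1), 1 among the libraries with leading number 5, and 2 to 3 with 1 library left out. For Igfbp3 the log2 fold change without a call was -0.85 with no filter and with the replicate block and -0.70 among the libraries with leading number 5. With 1 library left out the Igfbp3 value ran from -1.01 to -0.71 over all 6 such fits and from -0.84 to -0.71 in the 4 without a call. For Igfbp4 it was 0.40 with no filter, without the trend, with the replicate block and with the leading number as covariate, 0.39 among the libraries with leading number 5, and 0.33 to 0.46 with 1 library left out. The 1 library of each genotype whose name starts with 4 differed by -0.64 for Igfbp5, -1.14 for Igfbp3 and 0.41 for Igfbp4, with no test. Among Sp8 and the named pathway genes 2 of 134 estimates changed sign: Igf2r to 0.0201 under upper-quartile scaling and Stc1 to -0.0048 among the libraries with leading number 5. The embryo numbers did not pair the libraries: deviations from group means correlated at -0.16, -0.14 and -0.07 for equal numbers, and no library correlated best with its own number, so calls lost under the block carry no reading of effect size. Depth is known only relatively, which limits what can be said of Igf1, Igfbp6 and Igfbp7.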

Other observations

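Several secreted relatives of the family lay below the filter and are named here after their values were seen. Igfbpl1, a protein related to the IGF binding proteins, was at 0.7775, 0.4813 and 0.7354 FPKM in wild-type embryos 1, 2 and 3 and at 0.01043, 0.05214 and 0.01721 FPKM in Sp8 null embryos 1, 2 and 3. With no filter it was called (log2 fold change -0.69, limma adjusted p = 0.0291), beside 1.23% of the 27766 genes then tested. Stc2, whose product inhibits the Pappa protease, was at 0.3624 to 0.5995 FPKM in wild type and at 0.104 to 0.1424 FPKM in Sp8 null, with no overlap. Igfals, the partner of circulating IGF complexes, was at 0.159 to 0.2054 FPKM in wild type and 0.3118 to 0.3341 FPKM in Sp8 null. With no filter the limma adjusted p was 0.0783 for Stc2 and 0.14 for Igfals.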
